A study of Mus musculus with 14 samples.

Results

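Gluconeogenesis is the pathway by which the liver makes glucose from lactate, glycerol and amino acids and releases it between meals. Its control genes were examined here in mouse liver as a set of 10, namely the PEP carboxykinases Pck1 and Pck2, the glucose-6-phosphatase subunit G6pc with its transporter Slc37a4, fructose-bisphosphatase Fbp1, pyruvate carboxylase Pcx, the transaminases Got1, Gpt and Gpt2, and the coactivator Ppargc1a. They were chosen by name from the pathway, and all 10 of 10 had a probe set annotated with only their own symbol, among 22180 genes with such a probe set. In fasting, glucagon and cAMP activate CREB, which induces Ppargc1a, which encodes PGC-1α, and this coactivator acts with FOXO1, HNF4α and the glucocorticoid receptor on the promoters of Pck1 and G6pc. Insulin represses the same promoters, largely by keeping FOXO1 out of the nucleus. Alanine and aspartate transaminases supply the carbon skeletons of amino acids to the route, and the enzymes are most active in periportal hepatocytes.

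Affymetrix arrays that probe whole transcripts were hybridised with total liver RNA of male C57Bl/6J mice and read as log2 RMA values in which a difference of 1 is a factor of 2. All groups were placed on a 60% high-fat diet (HFD) at 6 weeks of age and ate it for 4 weeks before the arms diverged for another 4 weeks. The HFD control arm continued on the diet alone (n = 4 arrays). The HFD_CANA arm received the diet with canagliflozin, an inhibitor of the renal glucose transporter SGLT2, at 30 mg/kg (n = 5), and the HFD_caloric_restriction arm ate 15 to 30% less, so as to match the weight of the drug arm (n = 5). Every arm thus carries the HFD, and no lean group enters these comparisons. The feeding state and the hour at tissue collection are not stated in any label, nor is it stated that each array is a separate mouse, so p values measure the spread between these samples.

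RMA equalises the arrays' distributions, and the array medians ran from 4.07 to 4.13. Pairwise correlations over all probe sets ran from 0.971 to 0.985. Neither range shows that the RNA samples were alike. The number of arrays limits the precision. Hepatocyte markers were bright, 6 of 7 listed markers having own probe sets, with a mean log2 value per array from 11.88 to 12.04 in HFD controls, 11.84 to 11.95 under canagliflozin and 11.89 to 12.01 under caloric restriction. Periportal markers (5 of 7 measured) averaged 10.64 to 10.81, 10.66 to 10.96 and 10.67 to 10.84 in the same order, and pericentral markers (8 of 8) averaged 8.90 to 9.09, 8.97 to 9.10 and 8.97 to 9.07. The ranges of all 3 groups overlapped for each of the 9 marker lists, which also covered macrophages, stellate and endothelial cells, cholangiocytes, lymphocytes and adipocytes. In bulk tissue, fewer cells of a type and less RNA per cell cannot be told apart. Canagliflozin replicate 3 had the lowest value of its group for 5 of the 10 genes, and caloric restriction replicate 3 for 5 of 10 in its own group.

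The 4 genes that lay above all HFD controls in every canagliflozin array were Ppargc1a, Got1, G6pc and Pck1. Their promoters are shown because the genes were picked for that pattern in these same data. Whether the promoters bear on it was not tested. The windows are RefSeq's 300 bases, 250 before and 50 from the annotated start on, 5′ to 3′ on build GRCm38.p6. That of Ppargc1a lies at chr5:51567676-51567975 on the minus strand, that of Pck1 at chr2:173152823-173153122 on the plus strand, that of G6pc at chr11:101367466-101367765 on the plus strand and that of Got1 at chr19:43524556-43524855 on the minus strand. The Ppargc1a gene spans chr5:51454249-52115853, so its window is at a start inside the gene. Which start gave the measured RNA was not tested. Capitals mark exact matches, on either strand, to the cAMP response element core ACGTCA, the insulin response sequence CAAAACA, which reads TGTTTTG on the other strand, and the forkhead motif GTAAACA.
Ppargc1a: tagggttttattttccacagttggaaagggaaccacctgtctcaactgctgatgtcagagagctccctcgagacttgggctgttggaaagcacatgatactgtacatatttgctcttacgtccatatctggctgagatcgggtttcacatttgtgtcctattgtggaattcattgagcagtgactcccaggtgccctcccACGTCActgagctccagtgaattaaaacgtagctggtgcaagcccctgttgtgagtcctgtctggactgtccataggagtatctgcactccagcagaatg
Pck1: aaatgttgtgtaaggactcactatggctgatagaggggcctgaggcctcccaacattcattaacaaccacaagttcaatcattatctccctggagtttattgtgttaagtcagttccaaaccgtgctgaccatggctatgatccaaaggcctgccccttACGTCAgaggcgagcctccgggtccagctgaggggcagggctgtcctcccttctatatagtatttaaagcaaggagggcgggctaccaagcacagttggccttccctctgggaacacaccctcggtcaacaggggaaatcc
G6pc: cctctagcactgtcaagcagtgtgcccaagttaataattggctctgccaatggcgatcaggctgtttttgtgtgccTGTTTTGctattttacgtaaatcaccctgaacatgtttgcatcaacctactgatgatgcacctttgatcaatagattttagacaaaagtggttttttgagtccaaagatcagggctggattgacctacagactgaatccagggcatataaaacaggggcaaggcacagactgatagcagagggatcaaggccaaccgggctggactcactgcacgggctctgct
Got1: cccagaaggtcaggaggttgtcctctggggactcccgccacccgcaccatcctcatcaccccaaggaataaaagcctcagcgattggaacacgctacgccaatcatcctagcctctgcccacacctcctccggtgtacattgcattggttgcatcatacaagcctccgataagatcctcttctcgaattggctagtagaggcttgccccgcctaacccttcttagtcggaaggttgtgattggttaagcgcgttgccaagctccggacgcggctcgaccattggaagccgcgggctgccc
ACGTCA begins 50 bases before the start used here for Ppargc1a and 91 bases before that of Pck1. In Pck1 it is part of the longer match TTACGTCA to the element TNACGTCA, which contains the core. G6pc holds TGTTTTG from 174 bases before its start, and the Got1 window holds none of these letters. Of 32851 promoter windows of this length in the table, 7.5% hold ACGTCA, 2.9% TNACGTCA, 6.3% CAAAACA and 3.6% GTAAACA, counting both strands. The 9 genes of the set with a window have 12 windows in all. A gene was counted if any of its windows held the motif, so its chance of a match is not that of a single window. Counted so, ACGTCA occurred in 3 of these genes, the other being Slc37a4, and CAAAACA in 2, the other being Pck2. GTAAACA occurred in 0 of them. The nuclear receptor motif AGGTCA, not capitalised, occurred in 4 genes counted in that way (Slc37a4, G6pc, Pcx and Got1), and in 16.3% of all single windows.

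Under canagliflozin, Ppargc1a, Got1, G6pc and Pck1 were higher than in HFD controls, by 2.20-fold, 1.86-fold, 1.48-fold and 1.29-fold, and each exceeded all 4 controls in 5 of 5 arrays. Slc37a4 and Pcx were at nearly the same mean in both groups, and Gpt was the 1 member with a lower mean. None of the 10 passed limma's test over all 22180 genes, in which 0 genes (0%) were called in this comparison and the smallest adjusted p was 0.133. Without canagliflozin replicate 3, 12 genes were called, and still 0 of the 10. At an unadjusted limma p under 0.05, 4 of the 10 were higher, against 3.21% of all genes, and 0 were lower, against 3.3%. Groups did not overlap, with the drug higher, for 4 of 10 genes, against 0.987% of all genes. The median log2 difference of the 10 was 0.18, against 0.00 over all genes, and 9 of 10 means were higher, against 49.7% of all genes. Earlier results of these data were known when the set was proposed, so these counts describe it and are not independent evidence.

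**Figure D1:**
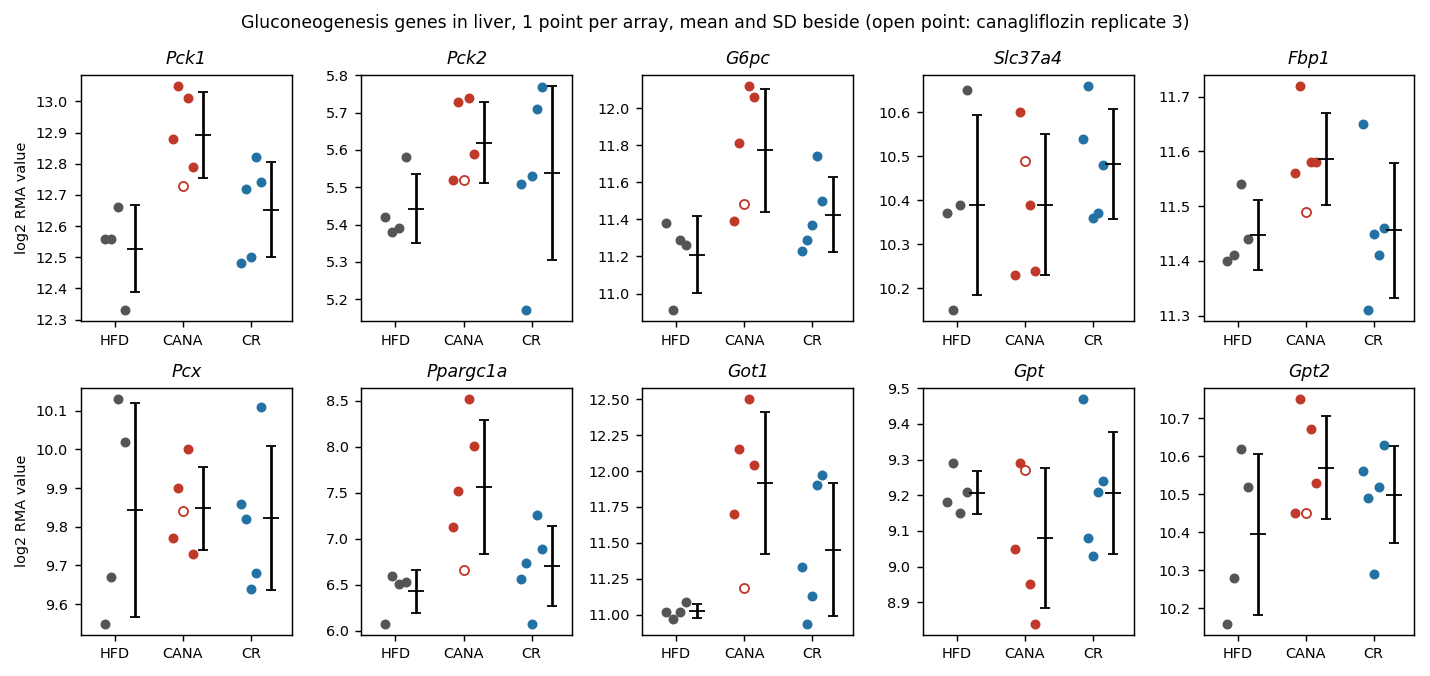
Log2 RMA value of each of the 10 genes (vertical axis, scaled per panel) in HFD control (HFD), canagliflozin (CANA) and caloric restriction (CR) arrays, 1 point per array, with the group mean and SD beside. Ppargc1a, Got1, G6pc and Pck1 lie above all controls in 5 of 5 canagliflozin arrays, with replicate 3 (open point) lowest of them for Ppargc1a (6.66), Got1 (11.19) and Pck1 (12.73).

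Ppargc1a, the coactivator at the head of the programme, measured 6.08, 6.60, 6.51 and 6.53 in HFD control replicates 1 to 4. Under canagliflozin it measured 7.13, 7.52, 6.66, 8.52 and 8.01 in replicates 1 to 5, and under caloric restriction 6.56, 6.74, 6.08, 7.26 and 6.89. The drug arrays were thus all above the controls, although replicate 3 exceeded the highest control by little, and the restricted arrays spanned the control range and beyond. The difference from controls was 1.14 ± 0.29 (SE) with a 95% interval of 0.53 to 1.75 (limma adjusted p = 0.559). The spread was wider under the drug, with an SD of 0.73 (n = 5) against 0.24 in controls (n = 4) and 0.43 under restriction (n = 5). Without canagliflozin replicate 3 the difference was 1.37, and without replicate 4 it was 0.90.

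Got1, the cytosolic aspartate aminotransferase of the malate-aspartate shuttle, was nearly constant in controls at 11.02, 10.97, 11.02 and 11.09. It measured 11.70, 12.15, 11.19, 12.50 and 12.04 under canagliflozin and 11.33, 10.94, 11.13, 11.90 and 11.97 under caloric restriction. All drug arrays and 4 of 5 restricted arrays were above every control. The canagliflozin difference was 0.89 ± 0.23 (SE), with an interval of 0.41 to 1.38 (limma adjusted p = 0.559), and the SD was 0.49 (n = 5) under the drug against 0.05 (n = 4) in controls.

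G6pc, whose product releases free glucose in the endoplasmic reticulum, measured 11.38, 10.91, 11.29 and 11.26 in controls. The canagliflozin values were 11.39, 11.81, 11.48, 12.12 and 12.06, and the caloric restriction values were 11.23, 11.29, 11.37, 11.74 and 11.50. Canagliflozin replicate 1, at 11.39, barely exceeded the highest control, at 11.38, while replicates 4 and 5 stood well clear. The drug differed from controls by 0.56 ± 0.15 (SE), with an interval of 0.24 to 0.89 (limma adjusted p = 0.559). Slc37a4, which carries glucose 6-phosphate to that enzyme, ranged from 10.15 to 10.65 in controls, 10.23 to 10.60 under the drug and 10.36 to 10.66 under restriction. Its canagliflozin difference was 0.01 ± 0.11 (SE), with an interval of -0.23 to 0.24.

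Pck1, the cytosolic PEP carboxykinase, measured 12.56, 12.56, 12.66 and 12.33 in controls. It measured 12.88, 13.05, 12.73, 13.01 and 12.79 under canagliflozin and 12.48, 12.72, 12.50, 12.82 and 12.74 under caloric restriction. The drug and control ranges did not overlap, and the restricted arrays lay in and between them. The canagliflozin difference was 0.36 ± 0.10 (SE), with an interval of 0.15 to 0.58 (limma adjusted p = 0.559). Pck2, the mitochondrial form, ranged from 5.38 to 5.58 in controls, 5.52 to 5.74 under the drug and 5.17 to 5.77 under restriction, with a canagliflozin difference of 0.18 ± 0.11 (SE).

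For the remaining enzymes, the canagliflozin differences from controls were smaller than those of Ppargc1a, Got1, G6pc and Pck1, and their intervals included 0. Fbp1, which dephosphorylates fructose 1,6-bisphosphate, measured 11.40 to 11.54 in controls, 11.49 to 11.72 under canagliflozin and 11.31 to 11.65 under restriction. Its drug difference was 0.14 ± 0.09 (SE), with 4 of 5 drug arrays above every control. Pcx, which makes oxaloacetate from pyruvate, averaged 9.84 ± 0.28 (SD, n = 4) in controls, 9.85 ± 0.11 (n = 5) under the drug and 9.82 ± 0.19 (n = 5) under restriction. Its canagliflozin difference was 0.01 ± 0.13 (SE). Gpt2, the mitochondrial alanine aminotransferase, measured 10.16 to 10.62, 10.45 to 10.75 and 10.29 to 10.63 in the same order, with a drug difference of 0.18 ± 0.11 (SE). Gpt, the cytosolic form, measured 9.15 to 9.29, 8.84 to 9.29 and 9.03 to 9.47, with a drug difference of -0.13 ± 0.11 (SE). The 6 genes other than Ppargc1a, Got1, G6pc and Pck1 had limma adjusted p values from 0.828 to 0.998 in this comparison, and their intervals reached no further than 0.42 above or 0.36 below 0.

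Under caloric restriction to a matched weight, 8 of the 10 genes had a higher mean than in HFD controls, against 50.5% of all genes. The largest difference was that of Got1, at 11.45 ± 0.46 (SD, n = 5) under restriction and 11.02 ± 0.05 (n = 4) in controls. That is 0.43 ± 0.23 (SE) higher, with an interval of -0.05 to 0.91. Ppargc1a differed by 0.28 ± 0.29, G6pc by 0.22 ± 0.15 and Pck1 by 0.12 ± 0.10 (SE). Single arrays moved these by over 1.5 times: leaving out replicate 4 of the restricted arm gave 0.14 for Ppargc1a and leaving out replicate 3 gave 0.43, while G6pc was 0.12 without HFD control replicate 2 and Pck1 0.06 without HFD control replicate 4. None of the 10 genes passed limma's test over all 22180 genes, every member having a limma adjusted p of 0.999. That value reflects the adjustment over all genes and does not set a member against its own spread. Before adjustment, the limma p of Got1 was 0.0775. At an unadjusted p under 0.05 there were 0 of 10, against 3.93% of all genes (2.06% higher and 1.87% lower). In 0 of 10 did the groups not overlap, against 0.703% higher and 0.694% lower of all genes. No gene was called in limma (0%). The upper bounds of the intervals were 0.91 for Got1, 0.88 for Ppargc1a, 0.54 for G6pc and 0.34 for Pck1.

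**Figure D2:**
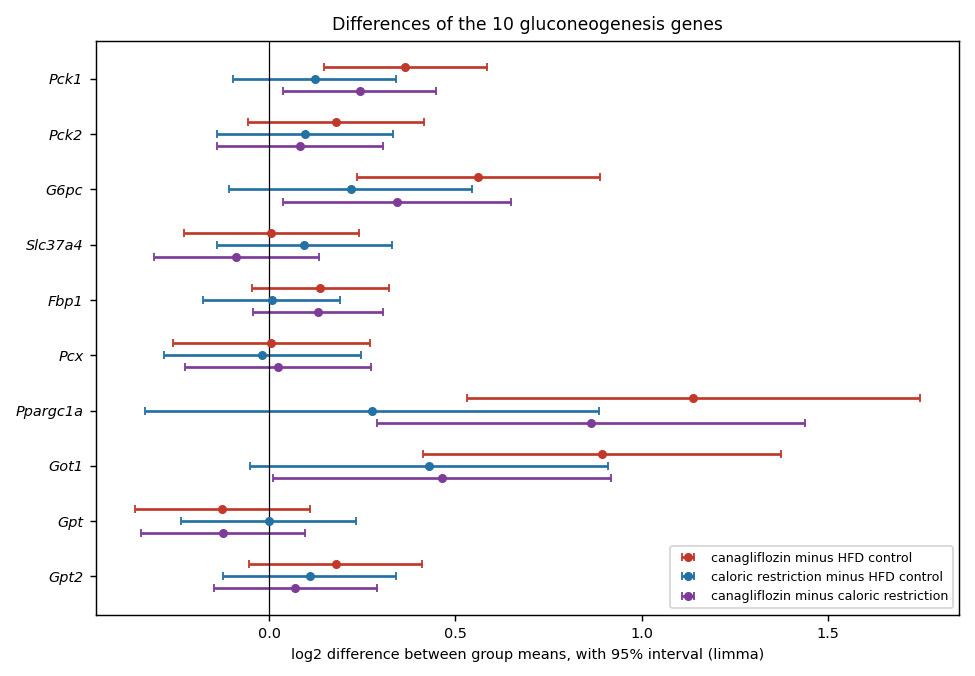
Log2 difference between group means (horizontal axis) for each of the 10 genes in the 3 comparisons, with 95% intervals from limma as bars. Against HFD controls the intervals of Ppargc1a, Got1, G6pc and Pck1 exclude 0 under canagliflozin (1.14, 0.89, 0.56 and 0.36) and include it under caloric restriction (0.28, 0.43, 0.22 and 0.12), before adjustment over all genes.

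Set directly against caloric restriction, canagliflozin again had its highest differences in Ppargc1a (1.82-fold, 0.86 ± 0.27 SE), Got1 (1.38-fold, 0.46 ± 0.22), G6pc (1.27-fold, 0.34 ± 0.15) and Pck1 (1.18-fold, 0.24 ± 0.10). This comparison uses the same canagliflozin arrays as the one with HFD controls, so the recurrence of these genes is not an independent result. Their 95% intervals were 0.29 to 1.44, 0.01 to 0.92, 0.04 to 0.65 and 0.04 to 0.45, and their limma adjusted p values ran from 0.683 to 0.818. In each of these 4 genes, 3 of 5 drug arrays were above all restricted arrays, and the groups overlapped in all 10 genes, where 0.437% of all genes did not overlap with the drug higher. At an unadjusted limma p under 0.05, 4 of 10 were higher, against 3.07% of all genes, and 0 lower, against 2.98% (6.05% in both directions). Means were higher in 8 of 10, against 49% of all genes. One gene in the genome-wide test passed, 1 of 22180 (0.00451%), and it was not of this set. It was Rtkn, named after its values were seen, at 4.88 against 5.50 (limma adjusted p = 0.0264), and without canagliflozin replicate 3 the number of genes called was 16, with 0 of the 10 among them. Macrophage markers also had higher means in 8 of 8 genes here, 0 of them called, with array means of 6.59 to 7.13 under the drug and 6.03 to 6.96 under restriction, and their part in the result was not tested. The remaining members differed by -0.12 (Gpt) to 0.13 (Fbp1).

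Isoenzymes and partners were then compared within each array, as the difference between their log2 values, to ask whether their group differences were unequal. Got1 minus the mitochondrial Got2 averaged 0.12 ± 0.48 (SD, n = 5) under canagliflozin, -0.47 ± 0.41 (n = 5) under restriction and -0.79 ± 0.20 (n = 4) in controls. Its shift from controls was 0.92 under the drug (two-sided exact permutation p = 0.0476, adjusted p = 0.222 over 12 tests). G6pc minus Slc37a4 shifted by 0.56 (exact permutation p = 0.0317, adjusted p = 0.222). Gpt2 minus Gpt shifted by 0.30 (exact permutation p = 0.111, adjusted p = 0.222) and Pck1 minus Pck2 by 0.19 (exact permutation p = 0.0794, adjusted p = 0.222). Without HFD control replicate 4, the last of these shifts was 0.076. None of the 12 tests, over 4 pairs and 3 comparisons, passed after adjustment. The smallest p these designs allow is 0.0159 for 4 against 5 arrays and 0.00794 for 5 against 5, so 1 pair alone could not have passed over 12 tests, and the outcome does not show that the partners moved alike. The pairs were chosen after the data were seen.

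The other 9 genes were also set against Ppargc1a from array to array within groups. After each group's mean was removed, Got1 had a Pearson r of 0.80 with Ppargc1a over 14 arrays (permutation p = 0.0068, adjusted p = 0.0612 over 9 relations) and a Spearman rho of 0.81 (permutation p = 0.00864, adjusted p = 0.0778). For G6pc r was 0.69 (permutation p = 0.0303, adjusted p = 0.117) and rho 0.67 (permutation p = 0.0321, adjusted p = 0.144). For Gpt2 r was 0.53 (permutation p = 0.039, adjusted p = 0.117) and rho 0.50 (permutation p = 0.0714, adjusted p = 0.214), and for Pck1 r was 0.51 (permutation p = 0.0853, adjusted p = 0.192) and rho 0.46 (permutation p = 0.122, adjusted p = 0.22). No relation passed after adjustment. Within the 4 HFD controls alone, too few for a test, r was -0.69 for G6pc, -0.18 for Pck1, -0.02 for Got1 and 0.61 for Gpt2. Without canagliflozin replicates 3 and 4, whose Ppargc1a deviated most from the group mean, r over the other arrays was 0.60 for Got1, 0.53 for G6pc, 0.49 for Gpt2 and 0.34 for Pck1. The other 5 genes had r between -0.31 (Gpt) and 0.40 (Pck2), with adjusted permutation p values from 0.285 to 0.776.

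**Figure D3:**
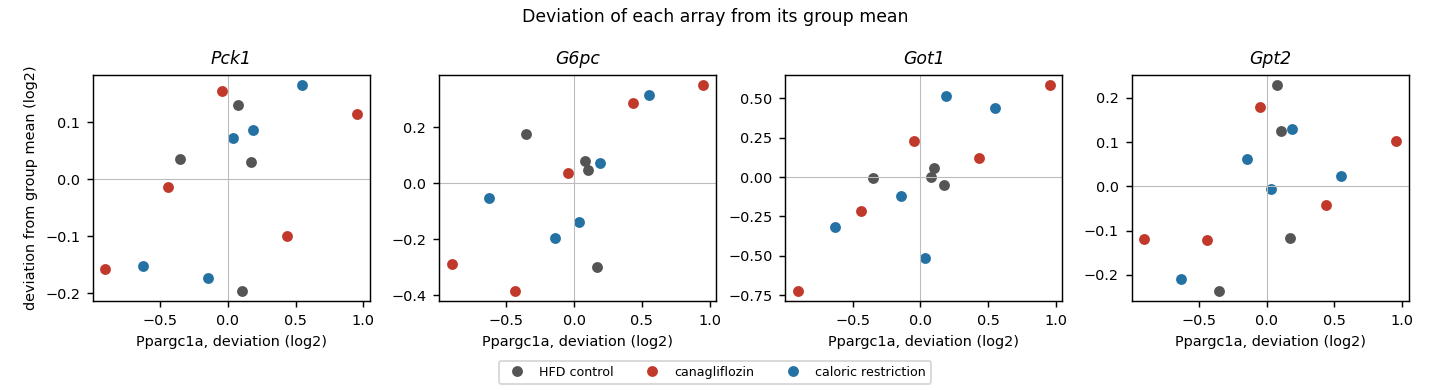
Deviation of each array from its group mean (log2) for Pck1, G6pc, Got1 and Gpt2 (vertical axes) against that of Ppargc1a (horizontal axis), coloured by group, 14 arrays per panel. The points of Got1 lie closest to a line (r = 0.80), and the ends of the horizontal axis are canagliflozin replicates 3 (-0.905) and 4 (0.955).

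Over all 14 arrays, with group differences kept, the genes most like Ppargc1a among the other genes with a mean log2 value of at least 5 were C9orf72, Sik1, Ell2, Igfbp1 and Lpin2. Their Pearson r with Ppargc1a was 0.96, 0.93, 0.93, 0.92 and 0.90, and their Spearman rho 0.91, 0.78, 0.88, 0.79 and 0.89. They were picked as the highest of 9300 ranked genes, so these values carry no test, and the arrays share their groups. Without canagliflozin replicates 4 and 5, the arrays farthest from the median level of Ppargc1a, r was between 0.80 and 0.88. Sik1 encodes a kinase that restrains CREB coactivators, Igfbp1 a binding protein of insulin-like growth factors, and Lpin2 a phosphatidate phosphatase. Of the set itself, Got1 ranked number 8 (r = 0.88), G6pc 24 (r = 0.84) and Pck1 73 (r = 0.78). The remaining members ranked lower. Their r was 0.625 for Gpt2, 0.548 for Pck2, 0.475 for Fbp1, 0.227 for Pcx, -0.125 for Slc37a4 and -0.473 for Gpt. Got1, G6pc and Pck1 are also genes that lay above all controls in every canagliflozin array, and group differences were kept here.

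The wider pathway was read from 6 lists with 85 genes, of which 76 had a probe set with their own symbol, and 0 passed limma's adjusted test in any comparison. Among 25 regulators, 13 had higher and 12 lower means under canagliflozin than in controls, where 49.7% of all genes were higher, with a median difference of 0.03. Sik1 measured 7.55, 8.22, 7.04, 8.98 and 8.48 under the drug and 6.94, 7.0, 6.73 and 6.93 in controls, all 5 drug arrays being higher (1.15 ± 0.28 SE, limma adjusted p = 0.559). Cebpa, which encodes a hepatocyte transcription factor, was lower than every control in 5 of 5 drug arrays (9.28 against 9.66, limma adjusted p = 0.673). Sik1 and Cebpa were named for the smallest p of the list. Of all genes, 0.987% did not overlap with the drug higher and 0.965% with the drug lower. Irs2, an adaptor of the insulin receptor, differed by 0.75 ± 0.29 (SE), with 4 of 5 drug arrays above all controls and replicate 3 below them all. Foxo1 itself differed by -0.08 ± 0.11 (SE). Under caloric restriction these 4 genes differed from controls by 0.34 (Sik1), -0.19 (Cebpa), 0.13 (Irs2) and -0.04 (Foxo1), with limma adjusted p values of 0.999. Nr0b2, a repressor known as SHP, and Prkaca, the catalytic subunit of protein kinase A, differed most between the treated arms on the lower side, by -0.54 ± 0.25 and -0.25 ± 0.11 (SE). For Prkaca, 5 of 5 drug arrays were below all restricted arrays, where 0.491% of all genes were lower without overlap.

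Igfbp1, induced with the gluconeogenic genes when insulin falls, measured 8.27, 8.92, 8.65 and 8.72 in controls and 10.39, 11.36, 8.71, 12.49 and 10.68 under canagliflozin. It was above all controls in 4 of 5 drug arrays, with replicate 3 in the control range, and 2 of 5 restricted arrays were above them too, at 10.29 and 10.54. Its difference from controls was 2.09 ± 0.55 (SE) under the drug (limma adjusted p = 0.559). Under restriction it was 0.74 ± 0.55 (limma adjusted p = 0.999), so Igfbp1 was not called in either comparison. In the substrate supply list, 12 of 19 measured genes were higher under the drug, against 49.7% of all genes, with a median of 0.08. At an unadjusted p under 0.05, 5 were higher, against 3.21% of all genes. They included Tat, the tyrosine aminotransferase (0.40 ± 0.13 SE, limma adjusted p = 0.598), Mdh2, the mitochondrial malate dehydrogenase (0.24 ± 0.09, adjusted p = 0.692) and Slc38a2, an amino acid transporter (0.49 ± 0.19, adjusted p = 0.708). Agxt, the alanine-glyoxylate aminotransferase, was higher by 0.35 ± 0.14. Pdk4, a kinase that shuts the pyruvate dehydrogenase complex, averaged 6.54 against 5.40, but replicate 4 at 8.90 stood far above the other drug arrays, which measured 5.11 to 6.58. Under restriction Mdh2 differed from controls by 0.26 ± 0.09 (limma adjusted p = 0.999), and 1 of these 19 genes had an unadjusted p under 0.05, against 3.93% of all genes.

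**Figure D4:**
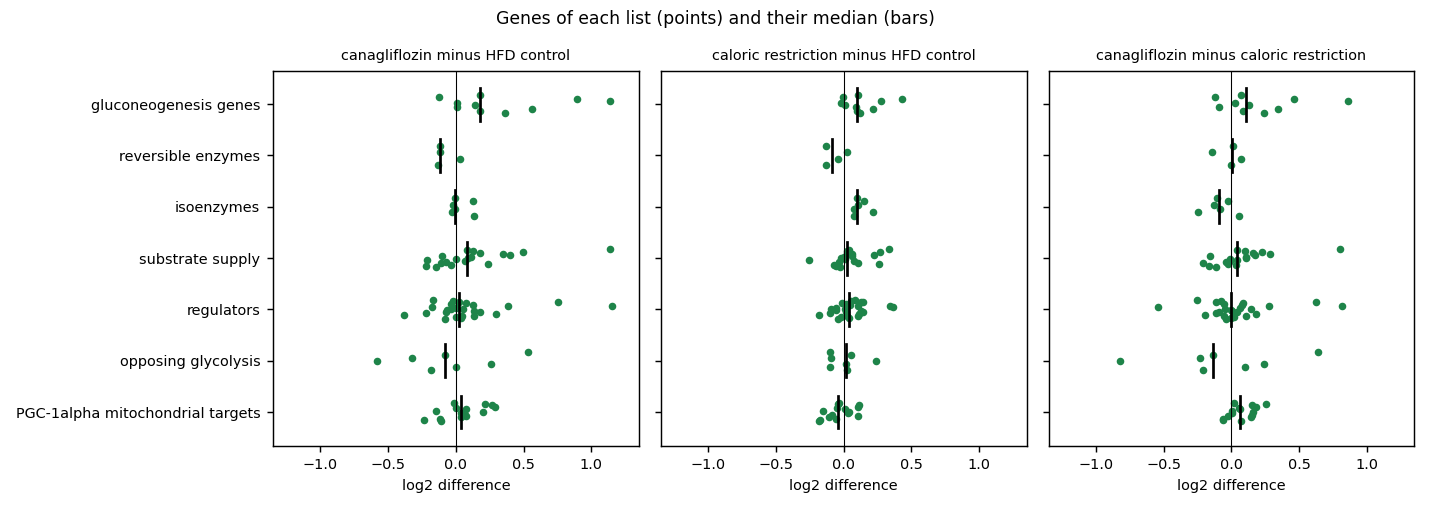
Log2 differences (horizontal axis) of the measured genes of each list (points) and their median (bar) in the 3 comparisons. The points farthest right under canagliflozin against HFD controls are Ppargc1a (1.14), Pdk4 (1.14) and Sik1 (1.15), and the point farthest left is Pklr (-0.58).

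Enzymes that run the opposite way were read from a list of glycolytic and sugar-responsive genes, 7 of 9 measured. Pklr, the liver pyruvate kinase, measured 10.23, 10.38, 10.95 and 11.16 in controls, 9.85, 9.73, 10.68, 10.36 and 9.87 under canagliflozin, and 10.93, 10.74, 10.90, 10.90 and 11.13 under caloric restriction. All 5 drug arrays were below all 5 restricted arrays, a difference of -0.82 ± 0.19 (SE, limma adjusted p = 0.487), and 3 of 5 were below all controls (-0.58 ± 0.20, adjusted p = 0.612). Of all genes, 0.491% were lower without overlap between the treated arms. Mlxipl, which encodes the sugar-sensing factor ChREBP, differed from controls by -0.32 ± 0.15 under the drug. Pfkfb2, a bifunctional regulator of glycolysis, differed by 0.26 ± 0.12. Txnip, an inhibitor of glucose uptake, differed by 0.64 ± 0.29 between drug and restriction. The median of the list was -0.08 under the drug against controls, 0.02 under restriction and -0.14 between the treated arms.

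The enzymes that gluconeogenesis shares with glycolysis, 4 of 7 measured, differed by -0.14 (Pgam1) to 0.03 (Pgk1) under the drug and by -0.13 (Pgam1) to 0.02 (Gapdh) under restriction. Of 6 isoenzymes and related transporters, 2 were higher and 4 lower under canagliflozin, from -0.03 (G6pc2) to 0.13 (Fbp2). All 6 had higher means under restriction, against 50.5% of all genes, by 0.08 (Fbp2) to 0.22 (G6pc2), with limma adjusted p values of 0.999. Fbp2 and G6pc2, the ends of these ranges, were dim, with group means of 3.29 to 3.43 and 3.22 to 3.47. Those lie below the array medians of 4.07 to 4.13, so their differences say little about the isoenzymes. A list of 15 genes held PGC-1α's mitochondrial targets and transcription factors of mitochondrial genes that work with it. Of these, 10 were higher and 5 lower under canagliflozin, where 49.7% of all genes were higher, with a median difference of 0.04. Under restriction 6 were higher and 9 lower than in controls (median -0.04), where 50.5% of all genes were higher. Between the treated arms 12 were higher and 3 lower with the drug (median 0.06), where 49% of all genes were higher. Under the drug against controls, Idh3a, a subunit of isocitrate dehydrogenase, differed by 0.29 ± 0.14 (SE). Acadm, an enzyme of fatty acid oxidation, differed by 0.26 ± 0.11. Nrf1, a transcription factor of mitochondrial genes, differed by -0.23 ± 0.09 under the drug and was below all controls in 5 of 5 restricted arrays (-0.17 ± 0.09, limma adjusted p = 0.999). Of all genes, 0.694% were lower under restriction without overlap. Esrra, which encodes the PGC-1α partner ERRα, differed by -0.11 ± 0.14 under the drug.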

How the data were processed

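The deposited values are log2 signals of probe sets, and the submitters' processing notes name Affymetrix Expression Console and RMA. RMA corrects background, equalises the arrays' distributions and summarises probes, so a global shift in RNA content would not be seen. The protocol text puts canagliflozin at 25 to 30 mg/kg, against 30 mg/kg in the sample labels, and 250 ng of RNA was labelled per array.

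Groups and replicate numbers come from the titles. Of 41345 probe sets, 23521 had 1 gene symbol, 1814 several and 16010 no entry. Each gene was read from its brightest probe set over all arrays, giving 22180 genes with no filter on dim values. Group means of all 14 arrays were fitted with limma 3.58.1 in R 4.3.3 (lmFit, eBayes), with Benjamini-Hochberg adjustment over all genes and a threshold of 0.05. The fit was tested on simulated data. Errors of differences are standard errors of that fit. Permutations within groups numbered 100000. Promoter windows come from RefSeq.

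The members and lists were chosen with earlier results of these data known. Named were all 10 members, every gene past the threshold or else up to 3 of smallest p per pathway list and comparison, Igfbp1, Pdk4, Foxo1 and Pklr throughout, and the 5 genes most like Ppargc1a. Same-numbered arrays correlated in their deviations by -0.089 to 0.198, with 3 of 13 pairs over 0.1, so the numbers were not taken to pair arrays. Alternative settings are given at the end.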

Additional observations from a re-analysis of the deposited data

Results flagged for a closer look

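Pck2 in HFD control replicate 4 measured 5.58 on the log2 scale and lay apart from the nearest other control at 5.42. Among named genes outside the set, Tpi1 in caloric restriction replicate 1 (10.87, nearest 10.29), Agxt in HFD control replicate 1 (9.06, nearest 9.21) and Mlxipl in caloric restriction replicate 5 (9.22, nearest 9.68) lay apart from their groups in the same way. Each exceeded Dixon's 95% critical value for its group. In all, 4 of 144 groups of values were marked, which is 2.78%, and chance marks about 1 in 20.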

How the results depend on the processing

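Of 550 recomputed log2 differences of the 10 genes, 523 kept their direction and 27 reversed, and 0 passed the threshold (smallest adjusted p = 0.0708, for Ppargc1a and Got1 without canagliflozin replicate 3). Ppargc1a, Got1, G6pc and Pck1 kept their direction in every setting. The differences that reversed were at most 0.083 in size as reported and at most 0.092 once reversed. With array weights, Slc37a4 and Pcx were at -0.0055 and -0.0047 under canagliflozin against controls. Gpt under restriction was 0.0065 with median centring, 0.0040 with cyclic loess and 0.010 with the deposited order as a covariate. Leaving out 1 array gave ranges against controls of -0.074 to 0.092 for Slc37a4 and -0.092 to 0.10 for Pcx under the drug, and of -0.042 to 0.043 for Fbp1, -0.12 to 0.079 for Pcx and -0.069 to 0.043 for Gpt under restriction. Between the treated arms they were -0.0091 to 0.14 for Pck2 and -0.021 to 0.097 for Pcx, and for Pck1 minus Pck2 under restriction -0.084 to 0.088. The cause was not tested.

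The count of all genes called in limma moved while that of the 10 stayed at 0. For canagliflozin against controls it was 0, and 1 with the dim filter at a mean of 5, 1 with the deposited order, and 0 to 12 leaving out 1 array (12 without canagliflozin replicate 3, 1 without replicate 5). For restriction it was 1 with the deposited order. Between the treated arms it was 1, 0 when only those groups were fitted, and 0 to 16 leaving out 1 array. It was 16 without canagliflozin replicate 3, 2 without replicate 2, and 0 without replicate 1, 4 or 5 or without restriction replicate 1, 2, 3 or 4. With the replicate number as a block, 1 gene was called for the drug against controls, 0 for restriction and 2 between the treated arms, and 5 of 14 arrays correlated best with their own number.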
